A study of Rattus norvegicus with 65 samples.

Results

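Endothelial genes are genes whose RNA, in a solid tumor, comes largely from the cells that line blood vessels. 8 of them were chosen by name: Kdr and Flt1, which encode receptors for vascular endothelial growth factor (VEGF), Tek, which encodes the angiopoietin receptor TIE2, Eng (endoglin), Pecam1, Cdh5 and Esam, which encode adhesion proteins of the contacts between endothelial cells, and Vwf (von Willebrand factor). The array annotation assigned probe sets to 6 of the 8 genes, out of 10411 genes with a probe set in all. Tek and Cdh5 had no probe set in that annotation and were not analysed here. Flt1 had 3 probe sets and the other 5 genes had 1 each, so 8 probe sets were read. All 6 genes passed the filter on low values, as did 7 of the 8 probe sets.

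The study profiled the RNA of rat mammary tumors, with 65 Affymetrix arrays. The tumors were first induced with a carcinogen, which the labels do not name, and were then passed serially through 5 generations of syngeneic hosts. The 6 groups were the primary tumors (n = 11 arrays), transplants 1, 2, 3 and 4 (n = 11 each) and transplant 5 (n = 10), from 11 transplant series numbered 10, 13, 17, 19, 25L, 25R, 32, 33, 34, 36 and 42, with 1 array for each series and generation and the transplant 5 tumor of series 10 not analysed here. The titles give 25L and 25R one number, so both lines may stem from a single animal, which no label settles; they were treated here as 2 separate series of the 11. The labels give no strain, age, treatment or invasive phenotype for a single tumor, so levels were compared by generation and by series.

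In a transplanted tumor, the vessels are formed mostly by cells of the host, which sprout into the graft in response to VEGF from the tumor. VEGF acts on the endothelium mainly through the signalling receptor encoded by Kdr, while the protein encoded by Flt1 binds VEGF tightly and, in its soluble form, withholds it. Endoglin, a co-receptor for ligands of the transforming growth factor beta family, is raised on dividing endothelium. The adhesion proteins hold the vessel wall closed, and von Willebrand factor is stored in endothelial cells and tethers platelets after injury.

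All values below are log2 intensities after each array was scaled to 1 common median, so a difference of 1.00 is a doubling. Intensities of different genes come from different probes and were not compared with each other. Median intensity per array before scaling ran from 96.1 to 176, and the array of series 32, transplant 5 had the lowest, with the next lowest at 143. That array also held the highest Eng (9.54) and Esam (9.46) values of all. Results without it are given below for the test of differing slopes and for the mean slopes of Vwf and Pecam1. The other fitted values keep it unless series 32 is left out, among them the Flt1 difference at transplant 5 and the mean slope of Esam. The summed intensity of 12 mammary epithelial genes was 815 to 909 in the 6 arrays of series 42, against medians of 9418 to 18864 in the other 10 series, and it was also low in transplants 3 to 5 of series 32 (1621 to 3355) and of series 34 (986 to 1252). Epcam, Cdh1 and Krt8, which define epithelium, had their lowest values at the floor of 5.31, the value given to dim probe sets. The tissue label of series 42 was therefore not borne out by these markers. In bulk tissue, fewer endothelial cells and less RNA per endothelial cell cannot be told apart.

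The promoters of 3 of the 8 genes were found among the 33469 windows of RefSeq (rat assembly GRCr8) that run from 250 bases before to 50 bases after a transcription start. All 3 are shown, and windows of the other members were not found there. Binding motifs of 3 families of endothelial transcription factors were searched on both strands: AGGAAG for the ETS family, AGATAA for the GATA family and ATTGTT for the SOX family. Of all windows, 34.5% held the first, 11.6% the second and 11.7% the third. Matches are in capitals (CTTCCT is the ETS motif on the other strand). The Kdr window, chr14:32571813-32572112 on the + strand, held none of the 3 motifs.

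Kdr: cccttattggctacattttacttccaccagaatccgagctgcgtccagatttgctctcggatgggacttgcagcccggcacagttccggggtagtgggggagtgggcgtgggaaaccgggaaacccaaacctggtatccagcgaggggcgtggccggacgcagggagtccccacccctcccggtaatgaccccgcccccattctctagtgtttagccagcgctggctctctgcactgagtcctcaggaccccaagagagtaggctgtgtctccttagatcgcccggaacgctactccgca

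The Flt1 window, chr12:12333180-12333479 on the + strand, held the ETS motif at 2 places and neither of the other motifs.

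Flt1: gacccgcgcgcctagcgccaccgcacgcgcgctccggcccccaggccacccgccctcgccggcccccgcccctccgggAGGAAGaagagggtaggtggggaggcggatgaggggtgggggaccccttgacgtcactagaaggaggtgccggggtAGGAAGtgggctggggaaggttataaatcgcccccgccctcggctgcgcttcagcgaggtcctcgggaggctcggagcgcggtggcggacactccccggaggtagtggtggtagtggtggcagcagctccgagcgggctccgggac

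The Eng window, chr3:36332029-36332328 on the + strand, held 2 ETS matches, 1 on each strand, and neither of the other motifs. The 3 windows describe letters only, and no binding was measured.

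Eng: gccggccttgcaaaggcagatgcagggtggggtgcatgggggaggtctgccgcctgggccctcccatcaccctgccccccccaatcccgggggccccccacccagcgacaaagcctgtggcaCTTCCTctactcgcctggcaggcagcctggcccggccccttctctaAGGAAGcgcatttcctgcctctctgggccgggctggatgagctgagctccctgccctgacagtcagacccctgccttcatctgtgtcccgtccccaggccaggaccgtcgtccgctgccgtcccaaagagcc

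Level differed among the 11 series for 5 of 6 endothelial genes (limma F test, adjusted p under the threshold of 0.05), a share like that of all 8499 tested genes, 83.5%, so the count itself does not set these genes apart. None of the 6 passed in any of 5 comparisons between generations. Series took 16.8% (Kdr) to 48.4% (Eng) of a gene's variance, against a median of 43.0% over all tested genes, and 4 of the 6 (Kdr, Vwf, Pecam1 and Esam) lay below that median. Generation took 2.24% (Pecam1) to 12.2% (Esam), against a median of 6.06%.

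Kdr was the member with the widest scatter inside series. Its level had a lowest value of 5.63, a median of 6.96 and a highest value of 8.16 over the 65 arrays, a range of 5.78-fold. The means ran from 7.40 ± 0.56 (SD, n = 6 arrays) in series 36 to 6.62 ± 0.38 (SD, n = 6) in series 19. No neighbouring series in that order were further apart than the pooled SD within series of 0.55, and Kdr did not pass the test among series (limma adjusted p = 0.355), although it did with arrays weighted by quality (limma adjusted p = 0.00113). Series 34 and 42 were the tightest, with SDs of 0.15 and 0.13, and series 25R the loosest, with 0.76.

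Flt1 was set apart by series 42. There it had a lowest value of 7.65 (the primary tumor), a median of 8.38 and a highest value of 8.77, and all 5 transplants lay above the primary tumor. The series mean of 8.34 ± 0.39 (SD, n = 6 arrays) was 0.44 above the next one, 7.89 ± 0.42 (SD, n = 6) in series 32, a gap wider than the pooled SD of 0.32. Series 33 had the lowest mean, 7.22 ± 0.08 (SD, n = 6), 2.16-fold below series 42, and the difference among series passed the test (limma adjusted p = 3.82e-05). The second Flt1 probe set had its highest mean in series 42 too, at 7.92 ± 0.44 (SD, n = 6), but with series 36 at 7.80 ± 0.59 and series 34 at 7.78 ± 0.36. The third probe set, the one below the filter, was at the floor on 15 arrays. The 3 probe sets correlated at r = 0.37, 0.26 and 0.54 with each other over 65 arrays, so the Flt1 values depend on which is read.

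Eng was highest in series 32. Its values there were 8.09 in the primary tumor and 9.19, 8.82, 9.16, 9.43 and 9.54 in transplants 1 to 5, so every transplant exceeded the primary tumor. The mean of 9.04 ± 0.53 (SD, n = 6 arrays) was 0.51 above the next series, 34, at 8.52 ± 0.18 (SD, n = 6), wider than the pooled SD of 0.41. The lowest mean was 7.70 ± 0.41 (SD, n = 6) in series 19, 2.53-fold below series 32, and the difference among series passed the test (limma adjusted p = 9.1e-05). In series 32 the summed intensity of 10 fibroblast genes (Col1a1, Col3a1, Dcn and others) went with it, at 1627 in the primary tumor and 24346, 15301, 49564, 54352 and 70996 in transplants 1 to 5. From the primary tumor to transplant 5 the sum of 12 macrophage genes (Cd68, Csf1r, C1qa and others) went from 6353 to 19527, and that of the 12 epithelial genes from 29760 to 1621. Over all 65 arrays the fibroblast sums lay between 924 and 70996. Fibroblasts and macrophages can themselves express Eng, and the part of these cells in the result was not tested.

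Pecam1, an adhesion protein of the endothelial surface that platelets and leukocytes also carry, had its highest mean in series 10, at 8.24 ± 0.80 (SD, n = 5 arrays), and its lowest in series 42, at 7.27 ± 0.19 (SD, n = 6). The single values of series 10 were 8.72 in the primary tumor and 7.93, 9.36, 7.87 and 7.34 in transplants 1 to 4, so 1 series held the highest array of all. Series 42 was narrow and low, from 6.92 to 7.43. The difference among series passed the test (limma adjusted p = 0.00531), and no neighbouring series differed by more than the pooled SD of 0.48. In the array of series 10, transplant 2, the summed intensity of 4 platelet genes was 1004, and over the 65 arrays these sums lay between 381 and 1021. The red blood cell sum of that array, 13252, was the highest of all, and the part of blood in its Pecam1 value was not tested.

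Esam, an adhesion protein of endothelial tight junctions and platelets, was highest in series 32, at 8.71 ± 0.57 (SD, n = 6 arrays), followed by series 17 at 8.51 ± 0.31 (SD, n = 6). It was lowest in series 33, at 7.74 ± 0.38 (SD, n = 6), a difference of 1.96-fold from the top (limma adjusted p among series = 0.000779). Series 42 stood next to the bottom at 7.91 ± 0.11 (SD, n = 6). No neighbours in the order were further apart than the pooled SD of 0.36.

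Vwf lay near the filter limit of 6.35, with a mean of 6.62 over 65 arrays. Its series means ran from 6.98 ± 0.36 (SD, n = 5 arrays) in series 10 to 6.24 ± 0.44 (SD, n = 6) in series 19, a 1.67-fold range. The difference among series passed the test (limma adjusted p = 0.0339), but not without series 10, 19, 34 or 42 (limma adjusted p = 0.0615, 0.0817, 0.0682 and 0.0662). All neighbouring means lay within the pooled SD of 0.38.

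**Figure D1:**
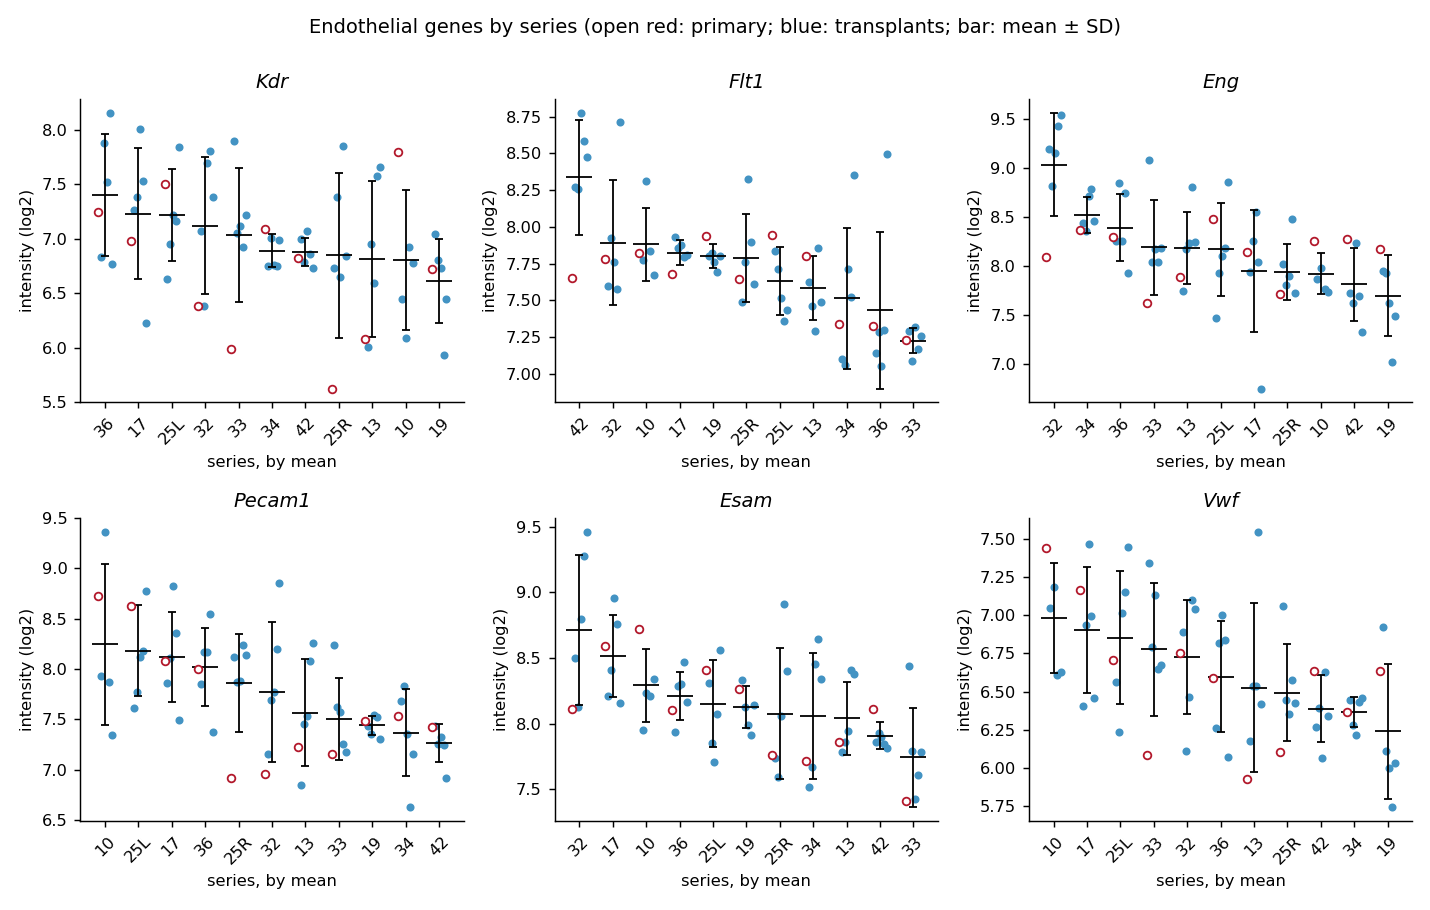
Log2 intensity of the 6 endothelial genes (vertical axis) in each of the 11 series (horizontal axis, in order of the series mean). Each point is 1 array, open red for the primary tumor and blue for transplants, and the bars are mean ± SD; Flt1 in series 42 and Eng in series 32 are the means that stand off from the next by more than the pooled SD.

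The orders of the series were not the same for every gene. Series 32 was at place 1 of the 11 for Eng and Esam, place 2 for Flt1 and place 6 for Pecam1. Series 42 was at place 1 for Flt1 and place 11 for Pecam1. Other endothelial lists did not rank series 42 alike. The summed intensity of 22 further pan-endothelial genes ran from 2917 to 3592 there, against medians of 4376 to 6393 in the other series, and that of 14 endothelial transcription factors had its lowest median there, 2739. The sum of 13 genes of sprouting and activated endothelium had a median of 2071 in series 42, within the medians of the other series (1984 to 2902). That of 6 lymphatic genes had its highest median there, 1685. These sums add linear intensities, so bright genes weigh most. One such pan-endothelial gene was Tm4sf1 (mean 9.59), whose r with the mean of the 6 members was 0.08. In the lymphatic list they were Pdpn (8.91) and Reln (7.86), while Prox1 (5.58) and Lyve1 (6.10) lay below the filter. The part of single genes in the place of series 42 was not tested. For the other 4 members, series 42 was at place 7 (Kdr), 9 (Vwf) and 10 (Eng and Esam).

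The first passage into a new host was compared first. From primary tumor to transplant 1, none of the 6 genes passed, and 0% of all tested genes did (limma, 0 of 8499, with 584 at an unadjusted p under 0.05). The fitted log2 differences were 0.13 ± 0.23 (SE) for Kdr, -0.03 ± 0.13 for Flt1, 0.04 ± 0.18 for Eng, 0.00 ± 0.20 for Pecam1, -0.04 ± 0.14 for Esam and 0.09 ± 0.16 for Vwf. Single series went far in both directions. For Kdr the difference was 1.91 at its highest, in series 33, and -1.35 at its lowest, in series 10. The 95% confidence intervals reached from -0.41 to 0.41 for Pecam1 and from -0.32 to 0.59 for Kdr. They show what sizes of difference the fit does not separate from 0. These intervals rest on the spread of all 65 arrays and do not model descent within a line.

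Over all transplants against the primary tumors, no member passed the test, where 9.5% of all tested genes did. Kdr had a lowest value of 5.63, a median of 6.82 and a highest value of 7.80 in the primary tumors. Its medians in transplants 1 to 5 were 6.83, 6.96, 7.07, 7.17 and 6.92, and every transplant group overlapped the primary tumors. The fitted difference was 0.29 ± 0.18 (SE; higher in 7 of 11 series; limma adjusted p = 0.308), with a 95% interval from -0.07 to 0.64. The other differences were 0.13 ± 0.16 for Pecam1 (higher in 6 of 11 series), 0.09 ± 0.10 for Flt1 (7 of 11), 0.09 ± 0.11 for Esam (6 of 11), 0.05 ± 0.14 for Eng (6 of 11) and 0.05 ± 0.13 for Vwf (6 of 11), with limma adjusted p of 0.624 to 0.860. The median over the 6 genes was 0.09, and over all tested genes 0.01. The highest upper limit among these 5 was 0.45, for Pecam1.

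**Figure D2:**
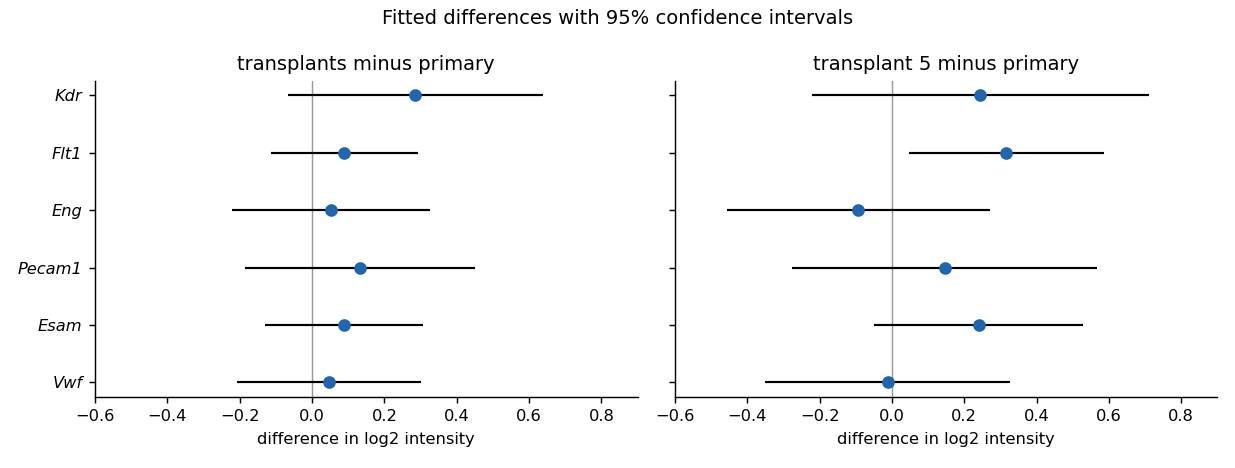
Fitted difference in log2 intensity (horizontal axis) for each gene, over all transplants minus primary (left) and transplant 5 minus primary (right). Points are estimates and lines 95% confidence intervals over 11 series (10 with a transplant 5 array); the line of Flt1 on the right, from 0.05 to 0.59, is the one clear of 0 before adjustment over all genes.

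At transplant 5 the largest difference was that of Flt1. It had a lowest value of 7.23, a median of 7.68 and a highest value of 7.94 in the primary tumors, and 7.25, 7.81 and 8.72 in transplant 5. The groups overlapped, and the high values came from series 32 (8.72), 36 (8.50), 42 (8.48) and 34 (8.35), all above every primary tumor. The same arrays had the lowest epithelial sums of transplant 5, at 1621, 5050, 909 and 986. In the other series these sums were 11665 to 21003. The part of tumor composition in the Flt1 values was not tested. The fitted difference was 0.32 ± 0.13 (SE; higher in 6 of 10 series), which did not pass (limma adjusted p = 0.102). It was 0.40 without series 25L, where it passed (limma adjusted p = 0.0430), and 0.09 with arrays weighted by quality (limma adjusted p = 0.711). With the mean of the 3 probe sets it was 0.20. With 1 value per series, the mean was 0.31 with an SD of 0.61 over 10 series (limma adjusted p = 0.327). No other member passed either: 0.24 ± 0.14 for Esam, 0.24 ± 0.23 for Kdr, 0.15 ± 0.21 for Pecam1, -0.01 ± 0.17 for Vwf and -0.09 ± 0.18 for Eng. Of all tested genes, 14.1% passed in this comparison.

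The mean of Eng changed by less than its error while its SD grew. The SD was 0.27 in the primary tumors (n = 11 arrays; lowest 7.62, median 8.18, highest 8.48) and 0.80 in transplant 5 (n = 10; lowest 6.75, median 8.06, highest 9.54). The low end was series 17 and the high end series 32. The difference in spread was not tested.

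During passage, from transplant 1 to 5, Esam had the steepest mean slope. Its medians were 7.95, 7.93, 8.06, 8.41 and 8.25 in transplants 1 to 5, and the ranges of all 5 groups overlapped. The slope was 0.10 ± 0.03 (SE) per transplant, upward in 8 of 11 series (limma adjusted p = 0.0636), and it passed without series 19, 33 or 42 (limma adjusted p = 0.0474, 0.0203 and 0.0468). With 1 value per series, which does not treat the tumors of a line as independent, the limma adjusted p was 0.447. Flt1 had a slope of 0.07 ± 0.03 (limma adjusted p = 0.170), and those of the other 4 genes lay between -0.02 and 0.05. No member passed, where 4.82% of all tested genes did. In the test of any difference among the 6 generations no member passed either, the lowest limma adjusted p being 0.228 for Esam, and 4.79% of all tested genes passed.

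**Figure D3:**
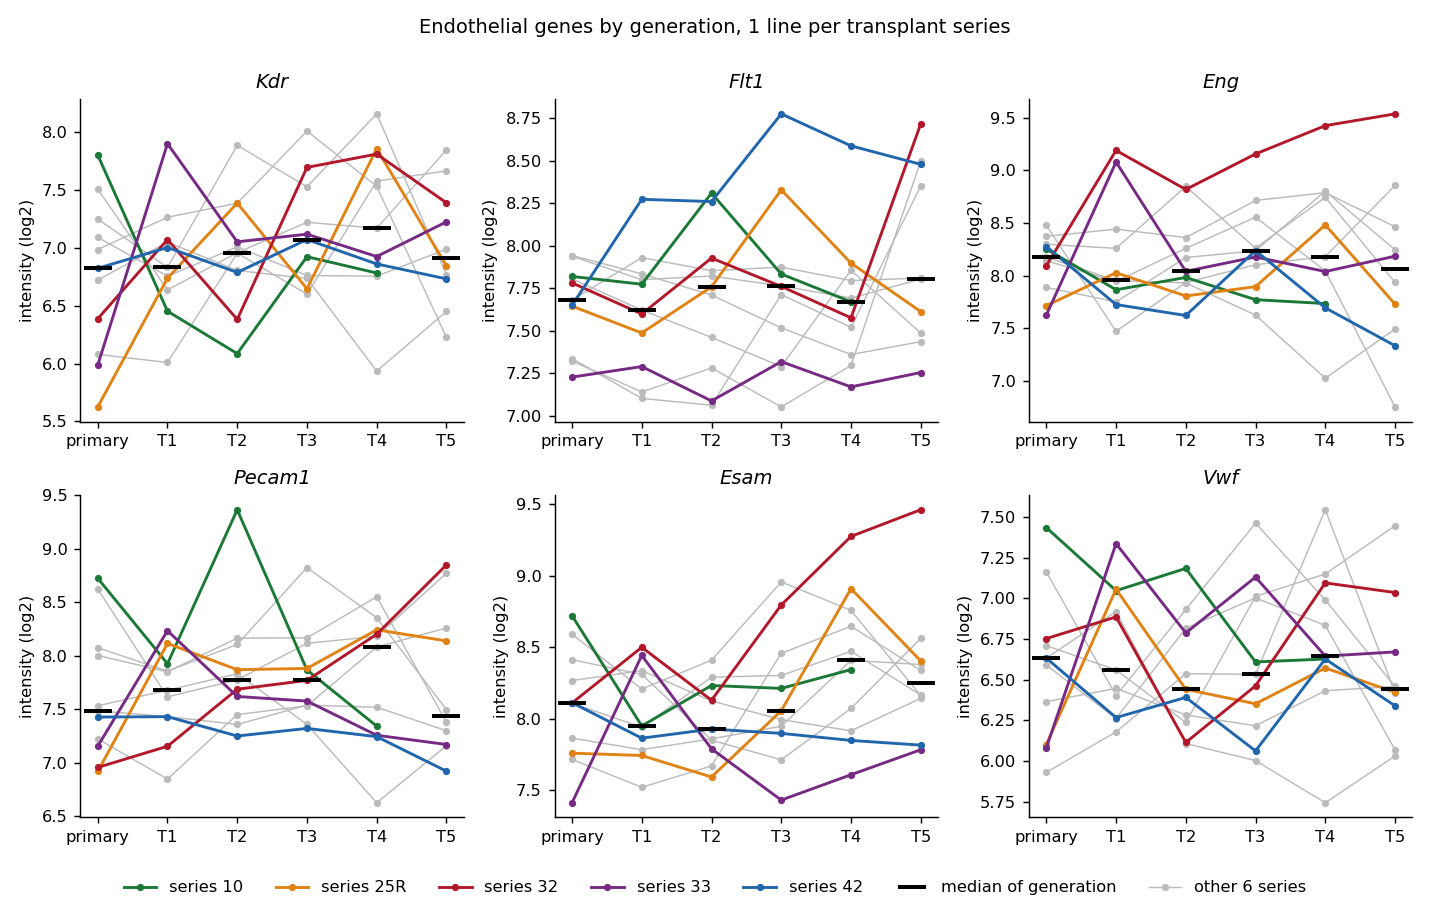
Log2 intensity of each gene (vertical axis) in the primary tumor and transplants T1 to T5 (horizontal axis), with 1 line per series, 5 series in colour and black bars for the generation medians. The medians move little, while single lines cross: series 32 climbs for Esam and Eng, and series 33 peaks at T1 for Kdr, Eng and Esam.

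The slope over transplants 1 to 5 differed among series for Pecam1 (limma F test of the interaction, adjusted p = 0.00933) and Esam (limma adjusted p = 0.0471), 2 of 6 members, where 24.3% of all tested genes passed, a share too close to the members' count to be read as a result about them. The other members had limma adjusted p of 0.0703 (Eng), 0.0766 (Flt1), 0.127 (Kdr) and 0.179 (Vwf).

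Pecam1 climbed through transplants 1 to 5 of series 32, with values of 7.15, 7.69, 7.77, 8.20 and 8.85, a slope of 0.39 per transplant. Series 13 (slope 0.35) and 25L (0.27) also went up, with values in series 13 of 6.85, 7.45, 7.53, 8.08 and 8.26. Series 33 went down, from 8.23 in transplant 1 through 7.62, 7.58 and 7.26 to 7.17 (slope -0.25). Series 10 (-0.32) and 34 (-0.22) had negative slopes too, and the slopes of the other 5 series lay between -0.10 and 0.04. The mean slope over series was 0.00 ± 0.24 (SD, n = 11 series). The call for Pecam1 held in all 10 alternatives that give this test and without any single series (limma adjusted p at most 0.0473).

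Esam climbed in series 32 as well, with values of 8.50, 8.13, 8.80, 9.28 and 9.46 in transplants 1 to 5 (slope 0.31). Its slope was 0.26 in series 25R and also 0.26 in series 34, and -0.15 in series 33. The slopes of the 2 genes had opposite signs in series 34 and 10, and also, closer to 0, in series 17 and 36. The Esam call did not hold without the transplant 5 array of series 32 (limma adjusted p = 0.0867), nor without series 13, 19, 32, 33, 34 or 42 (0.0527, 0.0803, 0.103, 0.117, 0.0691 and 0.0715). It was also lost with quantile normalization (limma adjusted p = 0.0814), without rescaling (0.133), without the filter on low levels (0.0551) and with array weights (0.151). The epithelial sum of series 34 went from 20755 to 986 between transplants 1 and 5, and the part of changing tumor composition in these slopes was not tested.

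**Figure D4:**
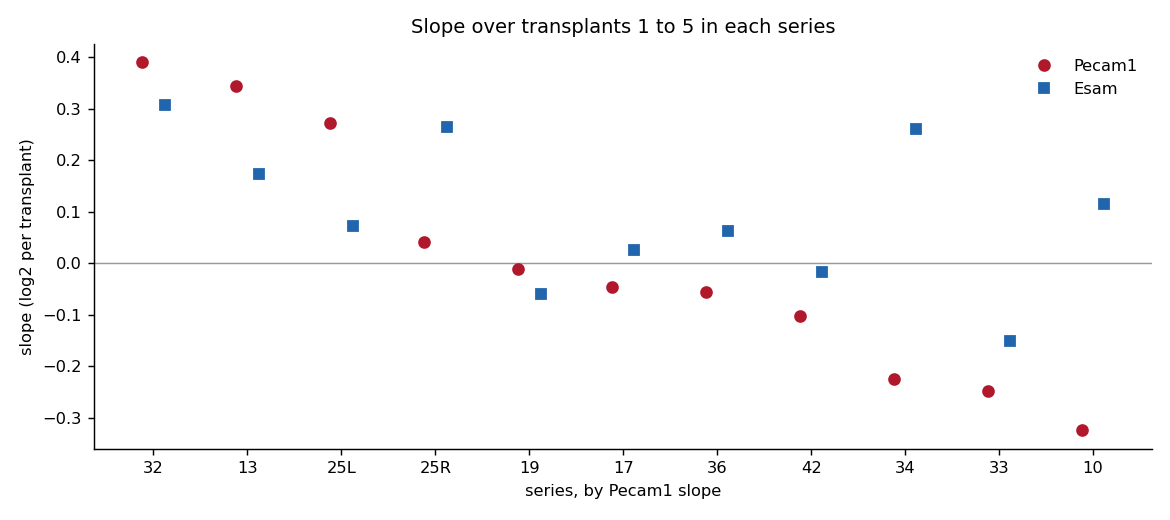
Slope in log2 intensity per transplant over transplants 1 to 5 (vertical axis) for Pecam1 (red circles) and Esam (blue squares) in each series (horizontal axis, by Pecam1 slope). Pecam1 runs from 0.39 in series 32 to -0.32 in series 10, and Esam from 0.31 in series 32 to -0.15 in series 33.

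In several lines, some members lay on 1 side of the primary tumor in every transplant. In series 33 every transplant lay above the primary tumor for Kdr, Eng, Pecam1, Esam and Vwf. Its primary tumor had 5.99 for Kdr, 7.62 for Eng, 7.15 for Pecam1, 7.41 for Esam and 6.08 for Vwf, and its transplant 1 had 7.90, 9.08, 8.23, 8.44 and 7.34. In series 25R every transplant exceeded the primary tumor for Kdr, Eng, Pecam1 and Vwf, and in series 32 for Eng, Pecam1 and Esam. Series 10 went the other way: every transplant lay below the primary tumor for Kdr, Eng, Esam and Vwf. In series 42 the same held for Eng, Esam and Vwf, while Flt1 was above the primary tumor in all 5 transplants. The primary tumor is 1 array in each series, so these counts rest on its value, and no test was made within a series. How many of all tested genes lay on 1 side in the same way was not counted. The lists therefore do not set the members apart from other genes. From the primary tumor to transplant 1, fibroblast sums went from 4958 to 22499 in series 33, from 2576 to 6621 in series 25R, from 1627 to 24346 in series 32 and from 39911 to 2628 in series 10. In transplants 2 to 5 of series 33 the fibroblast sums were 8852, 4886, 8863 and 6576. In series 42, where Eng, Esam and Vwf were lower in every transplant, the sum was 14850 in the primary tumor. It was 17462, 10632, 10825, 10942 and 6864 in transplants 1 to 5. The part of fibroblasts in these values was not tested.

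Apart from Flt1, the members went up and down together. With series means removed, the 15 pairs of genes correlated at r = -0.14 to 0.75 over 65 arrays, with a median of 0.56, and 13 of 15 were positive. The strongest pair was Kdr and Eng (r = 0.75). Each gene was also set against the mean of the other members, each centred and scaled. With series means left in, r was 0.70 for Esam, 0.67 for Kdr, 0.62 for Pecam1, 0.59 for Vwf, 0.55 for Eng and -0.05 for Flt1. With series means removed, it was 0.79 for Eng, 0.73 for Kdr, 0.70 for Esam, 0.65 for Pecam1, 0.61 for Vwf and 0.01 for Flt1. All 3 Flt1 probe sets failed to follow the mean of the other 5 genes (r = -0.05, -0.20 and -0.31, with series means left in). These correlations are descriptions, since arrays of a line are not independent and all genes share an array's scaling. Across the 11 series means, none of the 15 pairs passed a permutation test of Pearson's r or of Spearman's rho after Benjamini-Hochberg adjustment. The closest was Pecam1 with Vwf (r = 0.79, adjusted permutation p = 0.0916; rho = 0.82, adjusted permutation p = 0.0504).

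**Figure D5:**
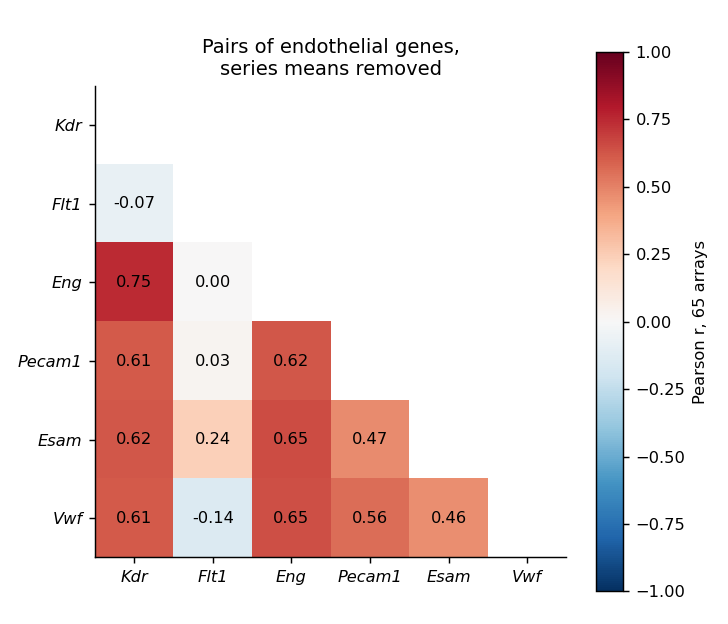
Pearson r (colour and number) between each pair of the 6 endothelial genes over 65 arrays after the series means were removed. The 10 pairs without Flt1 lie between 0.46 and 0.75, and those with Flt1 between -0.14 and 0.24.

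Among 8493 other tested genes, those most like the mean of the 6 members over 65 arrays were Ramp2 (r = 0.78), a partner of the adrenomedullin receptor in endothelium, Erg (0.78), an endothelial ETS transcription factor, Rarres2 (0.77), which encodes chemerin, and Cd248 (0.74), a surface protein of pericytes and fibroblasts. Cygb (0.74), Plvap (0.73), which forms the diaphragms of endothelial pores, Adgrl4 (0.73), an endothelial adhesion receptor, Sparc (0.73), a matrix glycoprotein, S1pr3 (0.73) and Alox5ap (0.72), a gene of leukotriene synthesis, completed the 10. The median r over all these genes was -0.04, with 90% between -0.39 and 0.43. After removing series means, the 10 genes kept r of 0.68 to 0.78. Genes of other cell types were also above that range. All 9 tested fibroblast genes were, from 0.63 (Thy1) to 0.48 (Postn). So were the macrophage genes Csf1r, C1qa, C1qb, C1qc, Tyrobp, Ptprc and Fcer1g (0.45 to 0.52). Cd68, Lyz2, Aif1 and Cd14 lay within the range (0.34 to -0.22). Among further pan-endothelial genes, Cd93 (0.70) and Cldn5 (0.67) were above it, and Icam2 (0.15), S1pr1 (0.07) and Ace (-0.20) within it. Pdgfrb, of pericytes, was above it at 0.68. Of the other tested pericyte and smooth muscle genes, Rgs5 was above it too (0.51). The rest lay within it, from 0.19 (Tagln) to -0.14 (Mylk), among them Notch3 (0.06) and Acta2 (-0.05).

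Other endothelial genes were read from lists drawn from general knowledge. Of 17 further pan-endothelial genes that passed the filter, 0 rose and 1 fell over all transplants, where 9.5% of all tested genes passed: Ace, the angiotensin-converting enzyme, fell by 0.58 ± 0.20 (SE; limma adjusted p = 0.0481). At transplant 5, Ace (-0.78) and Mcam (-0.69), an adhesion protein, were the 2 of 17 that passed, both lower, where 14.1% of all tested genes passed (626 higher and 571 lower of 8499). Podxl fell over transplants 1 to 5 by 0.22 per transplant. The median difference of the 17 genes at transplant 5 was 0.12, against 0.02 over all tested genes. The 3 that fell are not endothelial alone, since epithelial and mesenchymal cells can express Ace, Mcam and Podxl.

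Of 12 endothelial transcription factors, 3 rose and 2 fell at transplant 5, where 14.1% of all tested genes passed. Nr2f2, a factor of venous identity, was higher by 0.98 ± 0.24 (SE; limma adjusted p = 0.00489), Ets1 by 0.85 and Sox17 by 0.33, while Ets2 fell by 0.74 and the hypoxia factor Epas1 fell by 0.63. Over all transplants, Nr2f2 and Sox17 rose and Ets2 fell. Of 8 genes of sprouting and activated endothelium, Cxcr4 (0.39 ± 0.13) and Unc5b (0.62 ± 0.20), a guidance receptor, rose at transplant 5 and none fell. Over 65 arrays, r with the mean of the 6 members was 0.58 for Ets1, 0.45 for Nr2f2 and 0.38 for Epas1. It was 0.32 for Unc5b, 0.30 for Sox17, 0.10 for Cxcr4 and -0.15 for Ets2. Which cells of the tumors gave these changes was not tested.

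The ligands of the VEGF receptors were read next, against the same 14.1% of all tested genes. Of 6 tested genes of VEGF ligands and co-receptors, 1 passed at transplant 5: Vegfc, the ligand of lymphatic growth, was higher by 0.56 ± 0.19 (SE; limma adjusted p = 0.0437). Vegfa, the main ligand of Kdr, was at 0.50 ± 0.29 and did not pass (limma adjusted p = 0.240). Of 13 hypoxia targets, a list that also holds Vegfa, 5 rose at transplant 5 and none fell, where 626 of all 8499 tested genes rose and 571 fell: Ndrg1 (0.99), P4ha1 (0.90), Pgk1 (0.59), Hk2 (0.54) and Ldha (0.51). In the lymphatic list, Pdpn rose by 0.89 and Reln fell by 1.57 at transplant 5, while the defining genes Prox1 and Lyve1 did not pass the filter. Pdpn is also expressed by fibroblasts and tumor cells.

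Among 13 genes of the endoglin pathway, 3 rose and 1 fell at transplant 5, where 14.1% of all tested genes passed. Tgfb1, a ligand, was higher by 0.98 ± 0.24 (SE; limma adjusted p = 0.00471), the target gene Id3 by 1.44 ± 0.45 and the inhibitor Smad6 by 0.35 ± 0.11, and the co-receptor Tgfbr3 fell by 1.04 ± 0.20. Of 10 junction partners of VE-cadherin, the protein of Cdh5, 3 fell at transplant 5 and none rose: Ctnnd1 (-0.30), F11r (-0.98) and Ocln (-0.72). All 3 also belong to epithelial junctions, and 6 of 12 mammary epithelial genes fell in the same comparison, among them Cldn3 (-2.38), Krt19 (-1.64) and Epcam (-1.56). The part of lost epithelial signal in the junction genes was not tested.

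Markers of the cells that wrap vessels were also read, again against 14.1% of all tested genes at transplant 5 and 4.82% for the slope. Of 9 pericyte and smooth muscle genes, Mylk fell by 1.49 ± 0.42 (SE) at transplant 5, and Acta2 and Mylk had slopes of -0.23 and -0.41 per transplant; none rose. These genes also mark myoepithelial cells of the mammary gland. Of 12 genes of the vessel basement membrane, Nid2 rose by 1.10 ± 0.33 and Col4a1 fell by 0.72 ± 0.22 at transplant 5. None of 9 fibroblast, 3 platelet, 3 red blood cell or 3 adipocyte genes passed in that comparison. The median difference of the 9 fibroblast genes was still 0.83, against 0.02 over all tested genes. Of 11 macrophage genes, Fcer1g rose by 0.54 and Cd14 fell by 0.90, and of 5 skeletal muscle genes Myh1 fell by 0.50. No gene of the list on partners of von Willebrand factor passed the filter, so none was tested.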

How the data were processed

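Gene expression was measured on 65 one-colour Affymetrix arrays. Per the labels, total RNA from frozen tumors was column-purified and made into biotinylated cRNA. The deposited values are linear probe set intensity values, from 1 to 12011, and the sources used here do not say how the authors summarised or normalized them. No 2 arrays were identical. Series and generation came from the titles, and 25L and 25R were kept apart, although they may share an animal; each result was also computed without 25L and without 25R.

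From the deposited intensities, each array was scaled to a common median of 162, values under the pooled 10th percentile (39.8; log2 5.31) were raised to that value, and log2 values were computed. Genes were named by the platform annotation and read from the brightest probe set, and those with a mean under 6.35 (the lowest 25%) were left out, leaving 8499. The second Flt1 probe set and the mean of all 3 were alternatives. Sequences are RefSeq's.

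Tests used limma 3.58.1 (R 4.3.3) with generation and series as factors, and Benjamini-Hochberg adjustment over all 8499 genes, two-sided. Differences in slope used the 54 transplant arrays. Correlations used numpy 2.4.6 and pandas 2.3.3, with 100000 permutations for the pairs of members. Ranks, scaling and adjustment for these used scipy 1.17.1. On simulated data with 200 genes changed by 1 on the log2 scale among 8499, transplants minus primary recovered 97% and 4.43% of calls were false. The series is a block because the design text describes lines passed on from a first tumor. Deviations from generation means correlated at 0.38 within series and -0.04 between series, and 50 of 65 arrays were closest to one of their own series. In 3 of 11 series every pair exceeded 0.1. Whether tumors of 1 generation came from separate animals is not stated, so p-values measure the spread between these samples.

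Named genes were all members, the genes of each list past the threshold (of lists with more than 5 such genes, the 3 with the largest change each way) and the 10 most like the members' mean. The members, the lists and the tests were chosen with earlier results of these data known. The number of arrays limits the precision.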

Additional observations from a re-analysis of the deposited data

Results flagged for a closer look

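8 single arrays stood far from the rest of their group, out of 72 groups screened, where chance alone gives about 5% of groups. The groups were the 6 genes in each of 11 series and in transplant 5. The other generations, with 11 arrays each, were not screened. Pecam1 in series 25R was lowest in the primary tumor, at 6.92, with the next value at 7.87, and in series 42 it was lowest in transplant 5, also at 6.92, against 7.24. Flt1 was highest in series 10 at transplant 2 (8.31 against 7.83), in series 32 at transplant 5 (8.72 against 7.93) and in series 36 at transplant 5 (8.50 against 7.32). Eng in series 17 was lowest at transplant 5, at 6.75 against 7.94. Esam in series 33 was highest at transplant 1, at 8.44 against 7.79, and among the 10 arrays of transplant 5 it was highest in series 32, at 9.46 against 8.56. The transplant 5 array of series 32, which accounts for 2 of the 8, also had the lowest median intensity before scaling (96.1).

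The slope over transplants 1 to 5 differed between series for Pecam1 (limma F test of the interaction, adjusted p = 0.00933) and for Esam (limma adjusted p = 0.0471), as described above. Slopes ran from -0.32 to 0.39 per transplant for Pecam1 and from -0.15 to 0.31 for Esam.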

How the results depend on the processing

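For 18 differences (6 genes, 3 comparisons: all transplants and transplant 5 against primary, and slope), 408 values were recomputed under 12 alternatives and without each of 11 series. Of these, 373 kept direction and call, 31 changed sign, all without passing, and 4 gained a call. Without the replicate block (series left out of the fit), 0 members passed in the comparisons between generations, as with it, while the genes called over the whole array fell from 807 to 85 for all transplants and from 1197 to 37 for transplant 5. The number of members with a slope that differed among series was 2, and 1 with quantile normalization, without rescaling, without the filter, with array weights or without the transplant 5 array of series 32 (chosen after seeing the data). Esam was the one lost, at limma adjusted p of 0.0814, 0.133, 0.0551, 0.151 and 0.0867. Without each series in turn, that count ran from 1 to 3, the count at transplant 5 from 0 to 1 and the count for the slope from 0 to 1. The gains for differing slopes were Flt1 without series 25R (limma adjusted p = 0.0457) and Eng without series 36 (limma adjusted p = 0.0494). The sign changes were near 0. The slope of Vwf (0.0023 in the fit reported) was -0.0047 without the block, -0.0024 with quantile normalization, -0.020 without rescaling, -0.0039 with array weights, -0.0070 with 1 value per series and -0.0074 without the transplant 5 array of series 32. The slope of Pecam1 was -0.0010 without rescaling and -0.0068 without that array. Vwf at transplant 5 was 0.017 with array weights and 0.039 with 1 value per series. Without each series in turn, the values ran from -0.031 to 0.11 for Vwf, -0.057 to 0.12 for Eng over all transplants, from -0.095 to 0.064 for Vwf, -0.26 to 0.051 for Eng and -0.042 to 0.23 for Pecam1 at transplant 5, and from -0.026 to 0.024 for Vwf, -0.049 to 0.012 for Eng and -0.019 to 0.049 for Pecam1 in slope. The cause was not tested. The floor limits the third Flt1 probe set, where 15 arrays have no order. The tumors of a line descend from each other, which the fit does not model.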

Other observations

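Whether slopes differed among series was also counted for the other lists, where 24.3% of all tested genes passed. The counts were 5 of 17 further pan-endothelial genes, 5 of 12 endothelial transcription factors, 6 of 10 junction partners of VE-cadherin, 5 of 12 vessel basement membrane genes, 4 of 9 fibroblast genes and 11 of 12 mammary epithelial genes. None of 11 macrophage genes, 13 hypoxia targets or 3 red blood cell genes passed.

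At the other end of the likeness scale, the genes that ran most against the mean of the endothelial genes over 65 arrays were Fbxl6 (r = -0.66), Ptges2 (-0.65), which encodes a prostaglandin E synthase, and Wdr3 (-0.64). Among listed genes, Lama5 (-0.45), a laminin chain of basement membranes, and the epithelial mucin gene Muc1 (-0.34) were lowest. These genes were chosen after their values were seen, and the correlations are descriptions.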
